A study of Mus musculus with 10 samples.

Results

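Messenger RNA of 10 genes of the tight junction was followed in libraries labelled as proximal small intestine, from mice with and without the zinc transporter *Zip14* (*Slc39a14*). The genes are the claudins *Cldn2*, *Cldn3*, *Cldn4*, *Cldn7*, *Cldn8*, *Cldn15* and *Cldn23*, the scaffold gene *Tjp1*, and the membrane protein genes *Ocln* and *F11r*. They were taken by symbol from the 35275 gene IDs in the counts, and all 10 were found and had enough reads for the test. The labels give 5 WT and 5 KO mice of 8 to 10 weeks, with 1 library of a frozen intestinal segment per mouse, and the KO mice differ by the loss of *Zip14* and by no other allele or agent that the labels name. The paper's methods state that the RNA for sequencing came from mice lacking *Zip14* in the whole body and from WT mice. Both were of the same strain and bred from heterozygous parents. The title of the series names a deletion in enterocytes. Which of these deletions the libraries come from is not stated in the labels. Libraries are called by group and number (WT 1 to WT 5, KO 1 to KO 5).

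Tight junctions seal the space between neighbouring epithelial cells near the lumen. Their strands are built from claudins, 4-pass membrane proteins that either close the gap or form narrow channels for small ions and water. Occludin (*Ocln*) and junctional adhesion molecule A (*F11r*) are further membrane proteins of the junction, and ZO-1 (*Tjp1*) ties the strands to actin. In the gut, the set of claudins differs between crypt and villus and between segments, and *Cldn2* and *Cldn15* are the claudins best known for letting sodium pass back to the lumen.

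The libraries held between 16729787 and 20819678 counts in WT mice and between 17118742 and 19414828 in KO mice. *Slc39a14* had 264, 357, 268, 191 and 223 CPM (the counts of a gene relative to the TMM-scaled total of its library) in WT 1 to WT 5, and 160, 85.8, 93.8, 78.5 and 93.7 CPM in KO 1 to KO 5. All KO libraries were below all WT libraries, with reads of any remaining exons included. *Xist* was counted in all 10 libraries, and no library held more than 1 count of the Y-linked genes *Ddx3y*, *Eif2s3y*, *Kdm5d* or *Uty*, so that the groups did not differ in sex.

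The label of proximal intestine was checked against marker genes before the results. Of 5 genes of the proximal small intestine, 4 were tested by edgeR and 2 were called lower in KO mice (*Gata4* and *Onecut2*). DESeq2 called 4 genes of the list. The lactase gene *Lct* held most of the list's level in the WT libraries, KO 1 and KO 2, but not in KO 3, KO 4 and KO 5. It had 3363 to 3783 CPM in WT and 0.315 to 702 CPM in KO libraries, although its log2 fold change of -4.16 missed the threshold (edgeR, adjusted p = 0.0632). The summed level of the list was 3680 to 3970 CPM in WT mice and 5.35 to 772 CPM in KO mice. All 5 genes of the ileum were higher, with sums of 199 to 237 CPM in WT mice and 3240 to 10500 CPM in KO mice. *Cybrd1*, also of the proximal list, overlapped between the groups (9.52 ± 1.52 and 7.64 ± 2.92 CPM, adjusted p = 0.401). In KO mice the summed proximal level was thus low and all ileal markers high, against the label. Neither the proximal nor the ileal sum overlapped between the groups. The part of this in the results cannot be told apart from that of genotype in these libraries and was not tested. KO 1 and KO 2 kept the most of the proximal markers, with sums of 772 and 306 CPM against at most 18.0 CPM in the other KO libraries. Of 5 colon genes 1 of 2 tested was called higher, with sums of 35.2 to 72.6 CPM in WT and 42.8 to 1320 CPM in KO libraries. KO 2 held 1170 CPM of the colon gene *Car1*, which was at 0 in all WT libraries and at no more than 11.3 CPM in the other KO libraries. Results for the 10 genes are also given without KO 1 and KO 2, an alternative chosen after the markers were seen. It leaves the KO libraries with the fewest proximal marker counts, so that it shows how far values rest on KO 1 and KO 2 and is no check of the mismatch with the label.

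**Figure D1:**
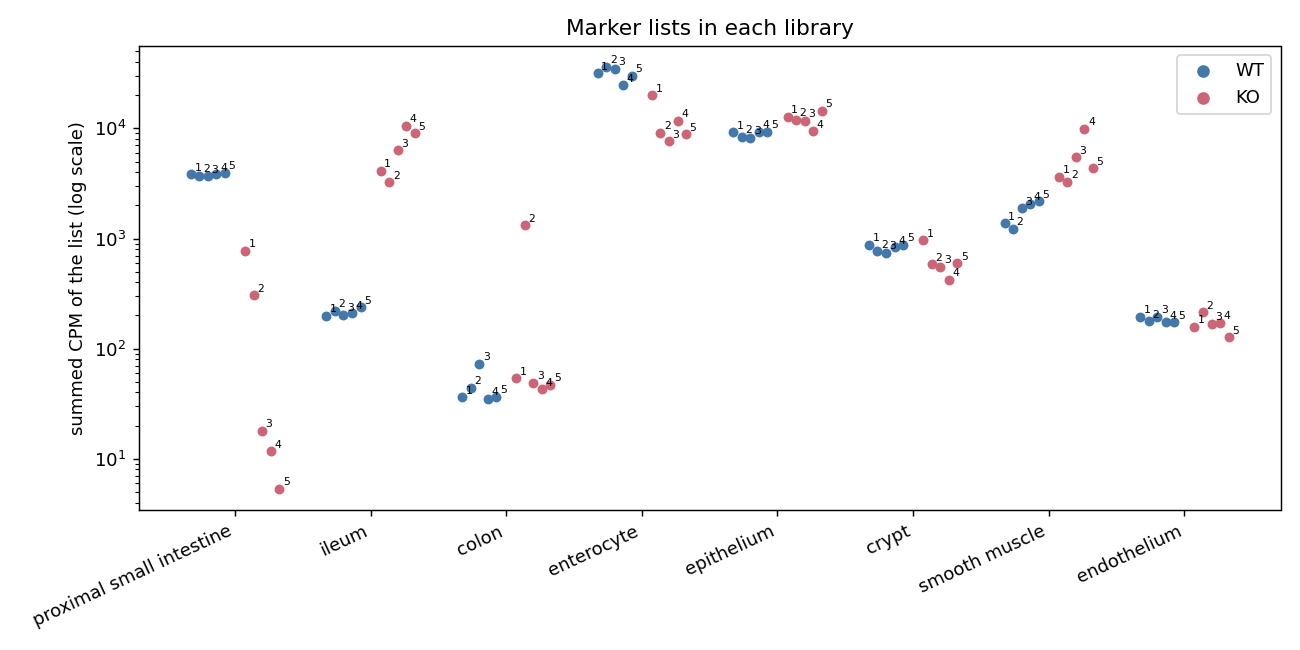
Summed CPM (log scale) of 8 marker lists in each library, 1 point per library with its replicate number, WT in blue and KO in red. The proximal list lies at 3680 to 3970 CPM in WT and at 5.35 to 772 CPM in KO libraries, and the ileum list at 199 to 237 CPM and at 3240 to 10500 CPM.

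Of the 10 genes, 4 claudins rose in KO mice (*Cldn2*, *Cldn3*, *Cldn7* and *Cldn8*), 1 fell (*Cldn15*), and *Cldn4*, *Cldn23*, *Tjp1*, *Ocln* and *F11r* did not pass the test. The test was edgeR's quasi-likelihood test over 15610 genes, a change is called at an adjusted p under 0.05, and SE is the standard error of the log2 fold change in that model. Over all genes tested, 29.9% were called, 16.0% higher and 13.9% lower, so that 5 of 10 is a larger share than the background, with no test of that difference. The groups did not overlap in 5 of the 10 genes, the same 5, against 21.1% of all genes (10.2% with KO higher and 10.8% with KO lower). These 5 were called from the same values, so that their separation is no further support. Without KO 1 and KO 2, 6 of the 10 were called, 5 higher and 1 lower, while the calls over all genes rose as well, to 5570 of 16041 tested. The median log2 fold change was 0.26 over the 10 genes and 0.03 over all genes. The libraries are bulk tissue, in which fewer cells of a type and less RNA per cell cannot be told apart.

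**Figure D2:**
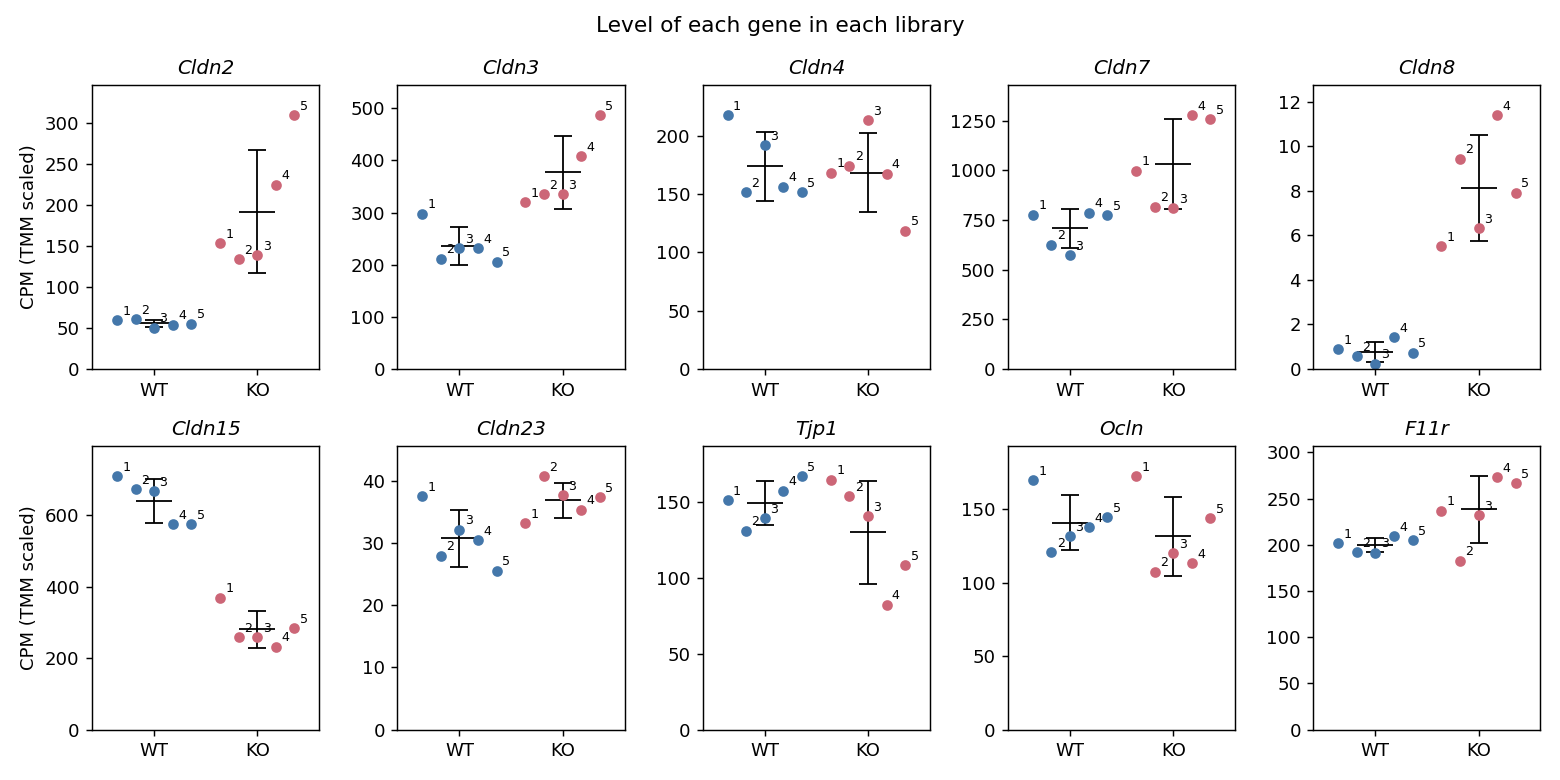
CPM of each of the 10 genes in each library (points, with replicate numbers), with the group mean and SD as black bars (n = 5 each). For *Cldn2*, *Cldn3*, *Cldn7* and *Cldn8* every KO point is above every WT point, for *Cldn15* every KO point is below, and in the other 5 panels the groups overlap.

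The upstream sequences of *Cldn2* and *Cldn15* are shown first, because these genes encode the channel-forming claudins and moved in opposite directions. They were taken from RefSeq (GRCm38.p6), which gave 10 promoters for 8 of the 10 genes, with 2 each for *Cldn7* and *Ocln*; *Cldn8* and *Cldn23* had no entry. Both run 5′ to 3′ on the plus strand, and capitals mark the letters TTTAT or, on the other strand, ATAAA, the core read by the intestinal homeobox factors CDX1 and CDX2. The first is chrX:139800558-139800807, the 250 bases before the RefSeq start of *Cldn2*. The second is chr5:136967619-136967843, from the 250 bases before the RefSeq start of *Cldn15*. That start lies inside the gene as GENCODE M21 places it, downstream of the GENCODE start, and the stretch shown is the part that no GENCODE exon covers. The RefSeq starts of *Tjp1* and *F11r*, and the inner start of both *Cldn7* and *Ocln*, also lie inside their GENCODE genes.
Cldn2: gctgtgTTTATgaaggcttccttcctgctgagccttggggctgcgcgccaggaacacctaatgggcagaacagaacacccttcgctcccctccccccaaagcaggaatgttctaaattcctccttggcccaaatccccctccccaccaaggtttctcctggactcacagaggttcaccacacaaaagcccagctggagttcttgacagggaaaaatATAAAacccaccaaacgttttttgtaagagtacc
Cldn15: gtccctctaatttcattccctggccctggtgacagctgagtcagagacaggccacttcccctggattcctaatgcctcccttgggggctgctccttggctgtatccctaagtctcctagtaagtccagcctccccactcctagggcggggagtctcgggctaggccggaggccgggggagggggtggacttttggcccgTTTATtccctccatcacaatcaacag
The string begins 244 and 34 bases before the RefSeq start of *Cldn2* and 51 bases before that of *Cldn15*. The copy nearest to the start of *Cldn2* overlaps the letters TATAAA, those of a TATA box, which 12.4% of all RefSeq promoters hold in the same 250 bases. The CDX string stood in 3 of the 10 promoters of these genes (*Cldn2*, *Cldn15* and *Tjp1*) and in 37.3% of 32851 promoters. The HNF4 core CAAAG stood in those of *Cldn2* and *Cldn4* (48.6% of all promoters). The letters GTTAAT of an HNF1 site (6.43%) and AGATAA of a GATA site (9.99%) stood in none of the 10. All strings were searched on both strands, and a match of letters is no evidence of binding.

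*Cldn2* (ENSMUSG00000047230), a channel for sodium and water that is best known from crypts and leaky epithelia, lies on chromosome X from 139800828 to 139811386 on the plus strand. It had 59.5, 60.6, 50.2, 54.0 and 55.4 CPM in WT 1 to WT 5, and 154, 134, 139, 225 and 310 CPM in KO 1 to KO 5. The WT libraries lay close together and every KO library was at more than the highest of them, with KO 4 and KO 5 above the other KO libraries. The rise was 3.43-fold, from 55.9 ± 4.21 to 192 ± 75.2 CPM (SD, n = 5 each), with a log2 fold change of 1.78 (SE 0.22, edgeR, adjusted p = 5e-04). Of the 7 crypt markers 2 were called higher and none lower (28.6% called, near the 29.9% of all genes). Their summed level was 744 to 879 CPM in WT and 423 to 962 CPM in KO libraries and overlapped. Without KO 1 and KO 2 the log2 fold change of *Cldn2* was 2.0.

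*Cldn15* (ENSMUSG00000001739), the other claudin that forms a sodium channel and a main claudin of the small intestinal villus, lies on chromosome 5 from 136966616 to 136975858 on the plus strand. It had 709, 672, 666, 574 and 574 CPM in WT 1 to WT 5, and 369, 259, 259, 231 and 283 CPM in KO 1 to KO 5. The groups were far apart, and KO 1, which kept the most of the proximal markers, was the KO library nearest to the WT range. For *Cldn2* the nearest was KO 2 (134 CPM, with KO 1 at 154 CPM), and for *Cldn7* KO 3 (810 CPM, with KO 1 at 998 CPM). *Cldn15* fell by 1.19 on the log2 scale (SE 0.14, edgeR, adjusted p = 0.000368), from 638.8 ± 61.4 to 280.2 ± 52.8 CPM (SD, n = 5 each), and WT mice had 2.28-fold the KO level. Enterocyte genes moved the same way, 5 of 8 being called lower and none higher (62.5% called, with 29.9% of all genes called). Their sums were 24700 to 36100 CPM in WT and 7650 to 19900 CPM in KO libraries. Their part in the fall of *Cldn15* was not tested. It fell by 1.31 without KO 1 and KO 2.

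Both channel-forming genes can be set against each other within a library, where scaling cancels. The CPM of *Cldn2* was between 0.0755 and 0.0964 of that of *Cldn15* in WT libraries and between 0.416 and 1.09 of it in KO libraries. The groups did not overlap in this ratio, which was chosen after the values were seen and is given without a test. KO 4 and KO 5 had the highest ratios, 0.971 and 1.09, and KO 1 had the lowest of the KO libraries.

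*Cldn8* (ENSMUSG00000050520) is a claudin that tightens the junction and is known from the distal gut and the distal kidney tubule. The gene is a single exon on chromosome 16 from 88560828 to 88563183 on the minus strand. It was the scarcest of the 10, with 4 to 26 counts per WT library and 98 to 239 counts per KO library. Its levels were 0.882, 0.574, 0.233, 1.43 and 0.729 CPM in WT 1 to WT 5, and 5.52, 9.44, 6.32, 11.4 and 7.92 CPM in KO 1 to KO 5. The lowest KO library was above the highest WT library. KO 1 was the KO library nearest to the WT range, as for *Cldn15* and *Cldn3* but not for *Cldn2* and *Cldn7*. *Cldn8* rose 10.4-fold, with a log2 fold change of 3.38 (SE 0.38, edgeR, adjusted p = 0.000306), and 99.2% of all genes tested had a smaller absolute change. The highest levels were in KO 4 and KO 2, which were also the libraries with the most *Car1* (11.3 and 1170 CPM), while KO 1 and KO 5, with no count of *Car1*, were above the WT libraries too (5.52 and 7.92 CPM of *Cldn8*). The part of colon RNA in the level of *Cldn8* was not tested. Without KO 1 and KO 2 the log2 fold change was 3.45.

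*Cldn3* (ENSMUSG00000070473), a sealing claudin of most simple epithelia, is a single exon on chromosome 5 from 134986214 to 134987472. The gene *Wbscr25* overlaps it on the other strand, and whether reads were counted by strand is not given in the sources used here. It had 298, 211, 232, 231 and 206 CPM in WT 1 to WT 5, and 320, 336, 335, 409 and 487 CPM in KO 1 to KO 5. WT 1 stood above the other WT libraries and came close to KO 1, and KO 5 was the highest. The log2 fold change was 0.68 (SE 0.15, edgeR, adjusted p = 0.0074), a 1.60-fold rise. Scaled to the epithelium list in place of all genes, it was 0.26 (adjusted p = 0.22).

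*Cldn7* (ENSMUSG00000018569), a claudin that also lies along the sides of the cells and binds the adhesion protein EpCAM, is on chromosome 11 from 69964779 to 69967885. Its CPM were 776, 626, 572, 788 and 774 in WT 1 to WT 5, and 998, 817, 810, 1277 and 1257 in KO 1 to KO 5. The groups did not overlap but KO 2 and KO 3 were just above the highest WT library. The log2 fold change was 0.54 (SE 0.17, edgeR, adjusted p = 0.0342), a 1.46-fold rise. This call was the least firm of the 5: the log2 fold change lay between 0.46 and 0.61 with single libraries left out, and the adjusted p was over 0.05 without any one WT library or without KO 4 or KO 5. Scaled to the epithelium list, the log2 fold change was 0.15 (adjusted p = 0.557).

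The epithelium list bears on these calls. Of its 11 genes 6 were higher and none lower (54.5% called, with 29.9% of all genes called). Its 3 most abundant genes did not move together: the keratin genes *Krt8* (log2 fold change 0.77) and *Krt19* (1.10) rose, while the microvillus gene *Vil1* had 3086 CPM in WT and 2200.0 CPM in KO mice (-0.49, edgeR, adjusted p = 0.105). The sum of the list was 8180 to 9370 CPM in WT and 9420 to 14500 CPM in KO libraries. Scaling to that sum moves the median log2 fold change of all genes from 0.03 to -0.39. *Cldn2*, *Cldn8* and *Cldn15* kept their direction and their call under it. Of the 10 tight junction genes, 2 were then called higher and 3 lower, in place of 4 and 1. With library size only, 6 were called higher and 1 lower. Smooth muscle genes were higher too, 10 of 10, with sums of 1220 to 2180 CPM in WT and 3280 to 9980 CPM in KO libraries. With the mean log2 CPM of these genes in the model, none of the 10 tight junction genes was called, 3 had an unadjusted p under 0.05, and 12 genes were called over the whole table; that score does not overlap between the groups, and its part cannot be told apart from that of the genotype in this fit.

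*Cldn4* (ENSMUSG00000047501), a sealing claudin that is a neighbour of *Cldn3* with 39.3 kb between both genes, lies on chromosome 5 from 134945119 to 134946934. It had 218, 152, 192, 156 and 152 CPM in WT 1 to WT 5, and 168, 175, 214, 168 and 119 CPM in KO 1 to KO 5. KO 5, the library with the most *Cldn2* and *Cldn3*, held the least *Cldn4*. Its log2 fold change was -0.04 (95% interval -0.40 to 0.31, edgeR, adjusted p = 0.853) and 0.09 with scaling to library size only. Scaled to the epithelium list it was -0.45 (adjusted p = 0.0985). Markers of the epithelium over lymphoid follicles, where *Cldn4* is known to be strong, were called in 0 of 5 genes by edgeR and by DESeq2, with 1 at an unadjusted p under 0.05.

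*Cldn23* (ENSMUSG00000055976), a claudin of differentiated epithelial cells, is a single exon on chromosome 8 from 35824712 to 35826559. It had 37.6, 27.9, 32.1, 30.5 and 25.6 CPM in WT 1 to WT 5, and 33.2, 40.8, 37.7, 35.4 and 37.4 CPM in KO 1 to KO 5. WT 1 lay among the KO libraries and the others were below all of them. The log2 fold change of 0.26 (95% interval 0.02 to 0.51) had an adjusted p of 0.093 by edgeR's quasi-likelihood test. It was 0.34 without WT 1 (adjusted p = 0.0414), 0.39 with library size only (adjusted p = 0.0252) and -0.16 when scaled to the epithelium list.

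The membrane proteins outside the claudin family did not pass the test. *F11r* (ENSMUSG00000038235, chromosome 1 from 171437535 to 171464603), an adhesion molecule of the immunoglobulin family, had 202, 192, 191, 209 and 205 CPM in WT 1 to WT 5. In KO 1 to KO 5 it had 237, 183, 232, 273 and 267 CPM, so that 4 KO libraries were above every WT library and KO 2 was below them all. The log2 fold change was 0.26 (95% interval 0.01 to 0.50, edgeR, adjusted p = 0.105). KO 2 decided the call: without it the value was 0.33 (adjusted p = 0.0267), and without KO 1 and KO 2 it was 0.36 (adjusted p = 0.0185). It was 0.38 with library size only (adjusted p = 0.0264) and -0.15 when scaled to the epithelium list.

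*Ocln* (ENSMUSG00000021638, chromosome 13 from 100496507 to 100552718), a 4-pass protein of the strands that is no claudin, had 170, 121, 132, 138 and 144.5 CPM in WT 1 to WT 5. In KO 1 to KO 5 it had 173, 107, 120.0, 113 and 144 CPM, with 3 KO libraries below the WT range and KO 1 at the top. Its log2 fold change was -0.10 (95% interval -0.42 to 0.21, edgeR, adjusted p = 0.618). Library size alone gave 0.01, and scaling to the epithelium list gave -0.53 (adjusted p = 0.00729).

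*Tjp1* (ENSMUSG00000030516, chromosome 7 from 65296165 to 65527781), which encodes ZO-1, had 151, 131, 139, 157 and 167 CPM in WT 1 to WT 5. In KO 1 to KO 5 it had 164, 153, 140.3, 82.3 and 108 CPM. The first 3 KO libraries were within the WT range and KO 4 and KO 5 were below it. KO 4 was also the library with the highest smooth muscle sum, 9980 CPM. KO 3, next in that sum with 5480 CPM, was within the WT range of *Tjp1*, and KO 5, with 4340 CPM, was below it. The part of muscle in the level of *Tjp1* was not tested. The log2 fold change was -0.20 (95% interval -0.58 to 0.18, edgeR, adjusted p = 0.397), -0.07 without KO 4, -0.44 without KO 1 and KO 2 (adjusted p = 0.0681) and -0.63 when scaled to the epithelium list (adjusted p = 0.0068).

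**Figure D3:**
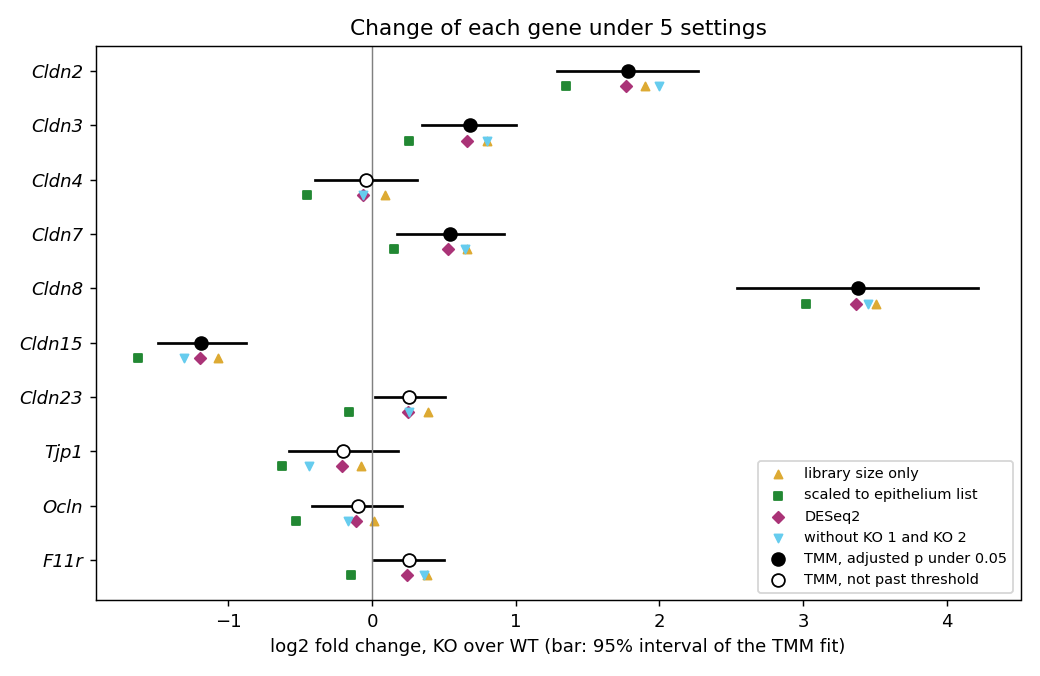
Log2 fold change of KO over WT for the 10 genes: circles and bars are the TMM fit with its 95% interval (filled where the adjusted p is under 0.05), and the small symbols are library size only, scaling to the epithelium list, DESeq2, and the fit without KO 1 and KO 2. *Cldn2*, *Cldn8* and *Cldn15* stay on their side of 0 under all 5, as do *Cldn3* and *Cldn7*, although near 0 when scaled to the epithelium list (0.26 and 0.15), while *Cldn4* and *Ocln* cross 0 with library size only and *Cldn23* and *F11r* when scaled to the epithelium list.

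Levels of different genes were compared as CPM per kb of exon. In WT mice *Cldn7* (363 ± 51.5) and *Cldn15* (301 ± 28.9) were the most abundant of the 10, and their libraries overlapped; by the length of the longest transcript they did not (429 to 590 and 302 to 373). *Cldn3* (187 ± 29.1) came next, then *Cldn4* (95.7 ± 16.4), *F11r* (75.0 ± 2.99) and *Ocln* (33.4 ± 4.35), with no overlap between neighbours in this order. *Tjp1*, *Cldn2* and *Cldn23* lay together at 19.1, 16.8 and 16.6, and *Cldn8* was last at 0.327 (SD, n = 5 each). In KO mice *Cldn7* stayed first (530.0 ± 117), *Cldn3* (300.0 ± 55.8) came next and *Cldn15* (132 ± 24.9) after it, again without overlap between them. *Cldn2* reached 57.8 ± 22.6 per kb and now overlapped with *F11r* (89.6 ± 13.5), *Cldn4* (92.8 ± 18.6) and, except by the longest transcript, *Ocln* (31.1 ± 6.35), and *Cldn8* was still last at 3.45 ± 1.01.

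Expressed as a share of the summed CPM per kb of all claudins in the counts, the make-up of claudin mRNA shifted between members while *Cldn7* had the largest mean share in both groups, although *Cldn15* was above it in WT 3 (33.2% and 31.2%), and these shares are descriptions without a test. *Cldn15* took 27.2% to 33.8% in WT libraries and 8.42% to 15.6% in KO libraries. *Cldn3* went from 17.1% to 20.8% in WT libraries to between 22.8% and 28.4% in KO libraries, and *Cldn7* from between 31.2% and 41.4% to between 41.6% and 50.6%. *Cldn2* made up 1.57% to 1.95% in WT and 4.08% to 6.84% in KO libraries. In none of these 4 did the groups overlap, whereas *Cldn4* took 8.68% to 11.2% and 4.80% to 11.8%. *Cldn8*, in spite of its rise, stayed at no more than 0.406% of the claudin level in any library.

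**Figure D4:**
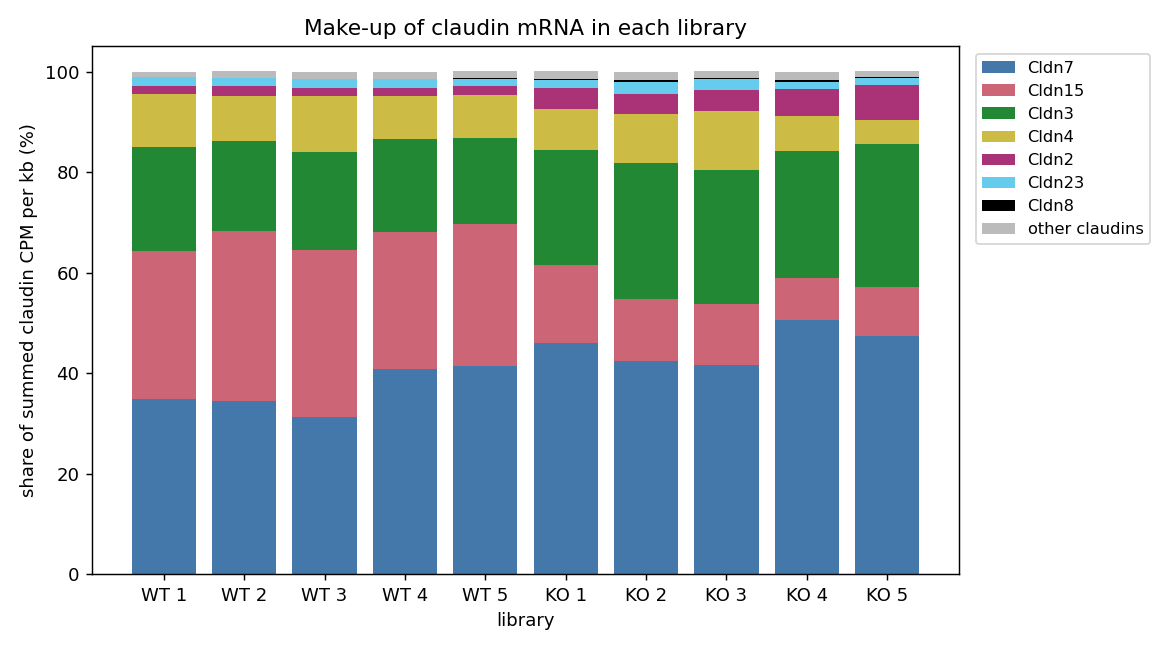
Share (%) of each claudin in the summed CPM per kb of all claudins, 1 bar per library from 0 to 100. *Cldn15* shrinks from 27.2% to 33.8% in WT libraries to 8.42% to 15.6% in KO libraries, while *Cldn7*, *Cldn3* and *Cldn2* take larger parts.

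Of 17 other claudins listed, 16 had a gene ID in the counts, *Cldn25* was not analysed here, and 4 had enough reads for the test. Of these 4, 2 were called, both higher (50% called, with 29.9% of all genes called). *Cldn16* and *Cldn17* had no count in any library, which allows up to 3 counts in each. *Cldn5*, the claudin of vascular endothelium, rose from 4.81 ± 1.08 to 8.94 ± 3.36 CPM (log2 fold change 0.89, edgeR, adjusted p = 0.025), with overlap between the groups. Of 8 endothelial markers none was called higher and 2 were called lower (25% called, with 29.9% of all genes called). Their sums were 174 to 195 CPM in WT and 127 to 213 CPM in KO libraries. *Cldn10*, a channel-forming claudin of kidney and glands, rose from 0.270 ± 0.227 to 0.864 ± 0.339 CPM (log2 fold change 1.65, adjusted p = 0.0247 by edgeR), also with overlap. *Cldn12*, the most abundant of this list, had 37.2 ± 1.60 and 35.8 ± 3.61 CPM (SD, n = 5 each) and was not called. The calls of *Cldn5* and *Cldn10* were frail: no gene of the list was called without WT 1 or without WT 2, and 1 was called without WT 3, WT 4 or KO 4. When scaled to the epithelium list 0 were called higher and 1 lower.

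Of 12 other membrane proteins of the tight junction, 5 rose and none fell (41.7% called, with 29.9% of all genes called and 16.0% called higher), and the median log2 fold change was 0.31. *Ildr1*, an angulin that marks the corners where 3 cells meet, rose from 2.85 ± 0.606 to 20.8 ± 15.7 CPM (log2 fold change 2.86, adjusted p = 0.00162), without overlap between the groups. Its relative *Ildr2* had a log2 fold change of 1.52 (adjusted p = 0.0364) at 0.767 and 2.22 CPM. The adhesion molecules *Clmp* (0.79, adjusted p = 0.0122) and *Jam3* (0.70, adjusted p = 0.0245) and the polarity protein gene *Crb3* (0.29, adjusted p = 0.0385, all by edgeR's quasi-likelihood test) were the others. *Cxadr*, the virus receptor and adhesion molecule that was the most abundant of the list, was not called (146 ± 19.3 and 174 ± 17.8 CPM). With single libraries left out, 2 to 4 genes of the list were called: 2 without WT 2, WT 3 or KO 3, 3 without WT 1 or WT 4, and 4 otherwise. When scaled to the epithelium list 1 was called higher and 2 lower.

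The scaffold and polarity proteins went both ways, with 4 higher, 3 lower and 12 not called among 19 (36.8% called, near the 29.9% of all genes), and a median log2 fold change of -0.14. Higher were *Cgnl1*, which encodes paracingulin (log2 fold change 0.91, adjusted p = 0.0185), *Ybx3*, a factor that binds ZO-1 (0.61, adjusted p = 0.00155), *Tjp3*, which encodes ZO-3 (0.46, adjusted p = 0.0461), and the atypical protein kinase C gene *Prkcz* (0.32, adjusted p = 0.0378). Lower were the polarity genes *Pard6b* (-0.51, adjusted p = 0.00897) and *Pard3* (-0.39, adjusted p = 0.0216) and *Tjap1* (-0.44, adjusted p = 0.00605, all by edgeR's quasi-likelihood test). *Cgn*, which encodes cingulin, had 224.5 ± 24.3 and 204.0 ± 41.2 CPM and was not called. When scaled to the epithelium list 0 were called higher and 11 lower, and 4 were called without WT 1 in place of 7. The split turned to 2 higher and 5 lower without KO 1, and to 2 higher and 7 lower without KO 1 and KO 2.

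Among 16 regulators tested of 17, 2 were higher and 3 lower (31.2% called), about the share over all genes. The count of calls thus gave no result of its own. The summed level, in which the most abundant genes weigh most, was 4380 to 5040 CPM in WT and 5280 to 7220 CPM in KO libraries. The groups did not overlap in this sum, which was not tested. *Spint2*, an inhibitor of the membrane proteases that cut EpCAM, rose from 785.7 ± 86.1 to 1305 ± 262 CPM (log2 fold change 0.73, adjusted p = 0.00609), and *Epcam*, which stabilises claudin-7, from 1618 ± 247 to 2274 ± 306 CPM (0.49, adjusted p = 0.0339). Scaled to the epithelium list, no regulator was called higher and 10 were called lower. The kinase gene *Stk39* fell by 0.77 (adjusted p = 0.00254), the ubiquitin ligase scaffold *Cul3* by 0.35 (adjusted p = 0.00924) and *Arhgef2*, an activator of RhoA at the junction, by 0.28 on the log2 scale (adjusted p = 0.0348, all by edgeR's quasi-likelihood test). Without WT 1, WT 2, WT 3 or KO 4, 3 regulators were called in place of 5, and without KO 1 and KO 2 there were 4 higher and 3 lower.

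Of 18 genes of the adherens junction and desmosome, which lie below the tight junction, 1 was called (5.56%, with 29.9% of all genes called) and 4 had an unadjusted p under 0.05; the difference between these shares was not tested. The called gene was *Evpl*, which encodes the desmosomal linker envoplakin and rose from 49.7 ± 6.26 to 112.9 ± 22.0 CPM (log2 fold change 1.18, edgeR, adjusted p = 0.000419). *Cdh17*, the intestinal cadherin and the most abundant of the list, had 1560.0 ± 114 and 1178 ± 285 CPM (adjusted p = 0.0942), and *Ctnnb1*, which encodes beta-catenin, had 765.9 ± 40.5 and 809.5 ± 135 CPM. The number called depended on the scaling and on single libraries, with 5 by library size only, 4 without KO 1, 2 without KO 2 and 3 without KO 4, and with 1 higher and 8 lower when scaled to the epithelium list.

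**Figure D5:**
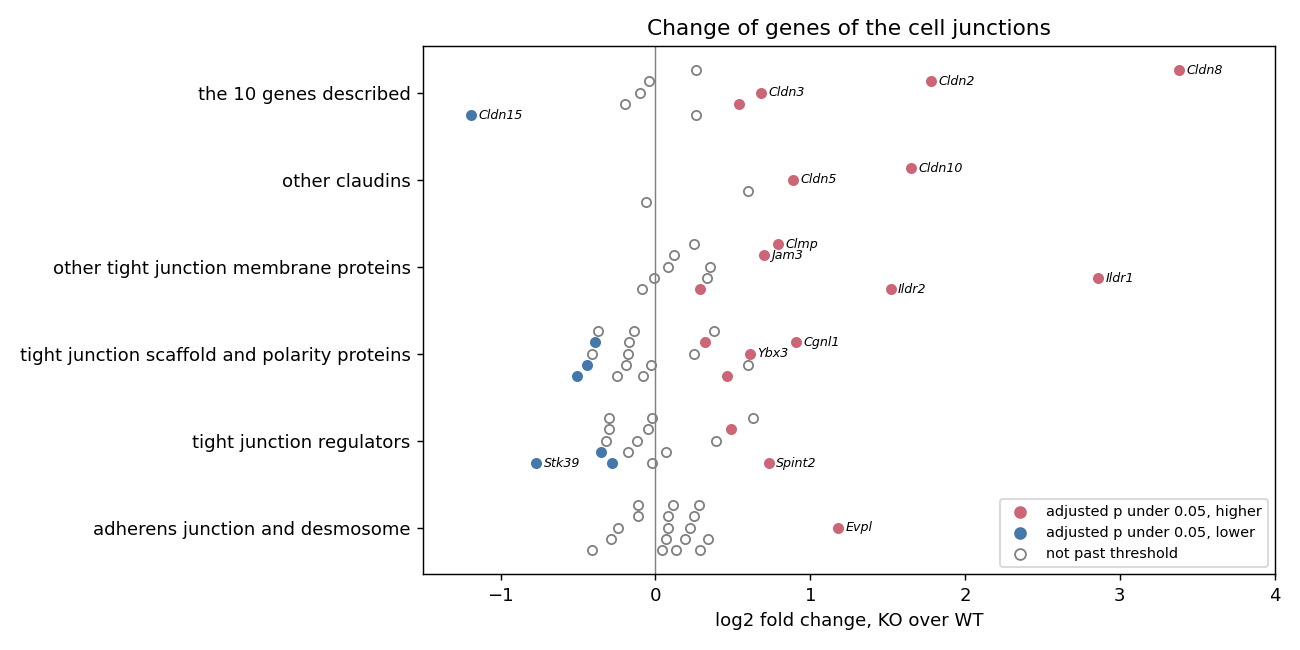
Log2 fold change of KO over WT (horizontal axis) for each tested gene of 6 junction lists, red where called higher, blue where called lower and open where not called; vertical spread within a row only separates points. *Cldn8* and *Ildr1* lie farthest to the right at 3.38 and 2.86, *Cldn15* farthest to the left at -1.19, and in the lowest row only *Evpl* is filled. Scaled to the epithelium list, values lie lower, and most calls of the scaffold, regulator and adherens lists are then in the lower direction.

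The genes whose log2 CPM over the 10 libraries was most like that of each member were found by Pearson's correlation, which contains the difference between the groups and is given as a description. For *Cldn2* they were *Fntb* (r = 0.986), *Ppp4c* (0.982) and *Card9* (0.980). For *Cldn8* the nearest was *Cdx1* (0.993), and for *Cldn15* it was an ID without a symbol in GENCODE M21 (ENSMUSG00000037814, r = 0.993), followed by *Nfe2l2* (0.992) and *Bpnt1* (0.990). Among the genes that were not called, the nearest were *Rps13* for *F11r* (0.987), *Rapgef5* for *Tjp1* (0.969), *Frrs1* for *Ocln* (0.916) and *AI593442* for *Cldn4* (0.915).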

How the data were processed

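RNA-seq libraries of single mice, 5 WT and 5 KO, were analysed from counts deposited by the authors, which are raw whole-number counts of reads per Ensembl gene ID without normalization. The submitters' processing notes name FastQC 0.11.9, Trimmomatic, HISAT2 2.0.4, SAMtools 1.3.1 and DESeq2 1.14.1, with the builds GRCm38 and mm10. Which counter, annotation and strand setting made the counts is not given in the sources used here. Gene IDs were named, placed and given exon lengths by GENCODE M21 (GRCm38), with 34490 of 35275 matched.

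R 4.3.3, edgeR 4.0.16 and DESeq2 1.42.0 were used. Libraries were scaled by TMM, genes were kept by filterByExpr (minimum count 10, minimum total 15), and groups were compared by edgeR's quasi-likelihood test over 15610 genes with Benjamini-Hochberg adjusted p-values and 0.05 as the threshold. CPM values are TMM scaled, and log2 CPM has a prior count of 2. Standard errors and 95% intervals are those of the edgeR model, and replicate spread is between mice. The tests were also tested on simulated data. The 10 genes, the lists and the tests were chosen with earlier results of these data known. Named genes were all 10 genes, *Slc39a14*, at most the 4 called genes with the largest change in each direction and the 2 most abundant of each junction list, and the 3 nearest genes by correlation; *Xist*, the Y-linked genes, *Car1*, *Gata4*, *Onecut2*, *Lct*, *Cybrd1*, *Krt8*, *Vil1* and *Krt19* serve as checks and markers, of which *Car1* and *Cybrd1* were picked after their values were seen. *Cldn16*, *Cldn17* and *Cldn25* are named as listed genes without a value.

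Alternatives were DESeq2, RLE normalization, scaling by library size, testing without a filter or with genes of a mean count of 10 or more, a robust fit, the replicate number as a block, scaling to the summed counts of the epithelium list, a smooth muscle score as a covariate, the length of the longest transcript, each library left out, and KO 1 and KO 2 left out together. Marker lists of enteric neurons and glia (6 of 6 higher) and of leukocytes (2 of 8 lower, 0 higher) were run as well.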

Additional observations from a re-analysis of the deposited data

Results flagged for a closer look

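*Cldn3* in WT 1, at 298 CPM, stood apart from the other WT libraries, which had between 206 and 232 CPM; the gap to the nearest of them was 0.719 of the range of the group. It was the only one of 20 sets of 5 libraries (10 genes in 2 groups) to exceed the limit of 0.71 of Dixon's test, which chance exceeds in about 1 of 20. Without WT 1 the log2 fold change of *Cldn3* was 0.77 in place of 0.68 and stayed called.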

How the results depend on the processing

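Of the 200 values of the 10 genes under alternatives, 169 kept their direction and their side of the threshold, 15 lost a call, 7 gained one and 9 turned direction; *Cldn2*, *Cldn8* and *Cldn15* lost their calls only with the smooth muscle score. That score as a covariate gave 1.59 for *Cldn2*, 0.61 for *Cldn3*, 0.19 for *Cldn7*, 2.79 for *Cldn8*, -0.75 for *Cldn15*, 0.29 for *Tjp1*, 0.13 for *Ocln* and -0.03 for *F11r*, none called, and 12 calls over all genes with 0 in each of the 5 other junction lists; since the score does not overlap between groups, this fit has little left to test. Scaled to the epithelium list, *Cldn3* was 0.26, *Cldn7* 0.15, *Cldn23* -0.16, *Tjp1* -0.63, *Ocln* -0.53 and *F11r* -0.15, and calls numbered 7105 over all genes (681 higher), 1 other claudin (lower, in place of 2 higher), 3 membrane proteins (1 higher, 2 lower), 11 scaffold proteins and 10 regulators (all lower) and 9 adherens genes (1 higher, 8 lower). Library size only gave 0.09 for *Cldn4*, 0.39 for *Cldn23*, 0.01 for *Ocln*, 0.38 for *F11r* and 5 adherens genes; 69.4% of all calls were then higher in place of 53.5%, and the median of all genes was 0.15. No filter gave 0.52 for *Cldn7* (not called) and 3 regulators. Without KO 1 and KO 2, which leaves the KO libraries least like the label, *F11r* was 0.36 (called), with 1 other claudin and 4 adherens genes. With single libraries left out, log2 fold changes ranged from -0.15 to 0.06 for *Cldn4* (0.05 without WT 1, 0.06 without KO 5), 0.46 to 0.61 for *Cldn7*, 0.20 to 0.34 for *Cldn23* and 0.20 to 0.33 for *F11r*, and counts from 0 to 2 other claudins, 2 to 4 membrane proteins, 4 to 7 scaffold proteins, 3 to 6 regulators and 1 to 4 adherens genes. The cause was not tested. Replicate numbers did not pair the mice (correlation of deviations -0.167 to 0.177, 1 of 5 WT libraries nearest to its own number); with the replicate block 5 of the 10 genes were called, 3 membrane proteins in place of 5, and no call of the 10 genes changed. The longest transcript gave 18.4 CPM per kb for *Cldn2*, 530.0 for *Cldn7*, 336 for *Cldn15*, 21.1 for *Tjp1* and 79.4 for *F11r* in WT mice. Depth limits only *Cldn8* among the 10, with 4 counts in WT 3.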

Other observations

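*Cldn3* and *Cldn4* are neighbours on chromosome 5, and their ratio within a library does not depend on scaling. The CPM of *Cldn3* was 1.21 to 1.48 times that of *Cldn4* in WT libraries and 1.57 to 4.10 times in KO libraries, with the highest value in KO 5. The ratio of *Cldn7* to *Cldn4* was 2.98 to 5.10 in WT and 3.79 to 10.6 in KO libraries, so that the groups overlapped. Both ratios were chosen after the values were seen and were not tested. The genes nearest to *Cldn23* over the libraries were *Sprr2a1* (r = 0.912) and *Sprr2a2* (0.902), near-identical copies that can share reads, and those nearest to *Cldn3* were *Tmem242* (0.980) and *Cd82* (0.979).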
